A study of Danio rerio with 2 samples.

Results

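The genes described here are the nuclear genes of the mitochondrial respiratory chain and ATP synthase in the injured zebrafish heart. They were chosen by symbol alone: complex I (nduf genes), complex II (sdh), complex III (uqcr), complex IV (cox4 to cox8) and complex V (atp5), with their assembly factors. Of the 32057 genes listed, 102 carried such a symbol and 96 of these had at least 20 UMIs (unique molecular identifiers, each marking 1 captured RNA molecule) over the kept cells of both libraries. The 96 were 82 subunits (34 of complex I, 5 of complex II, 8 of complex III, 18 of complex IV and 17 of complex V), 10 assembly factors, 2 genes of the ndufa4 family and 2 genes for the inhibitor of ATP synthase. The assembly factor ndufaf7, at 20 UMIs, was the last gene inside the minimum and sdhaf1, at 13 UMIs, the first outside it. The other genes outside were ndufa4l2a at 6 UMIs, ndufs1 and ndufa9b at 1 each, and ndufa4l2b and ndufs8b at 0.

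Complexes I, III and IV pass electrons from NADH and from reduced quinone to oxygen and pump protons out of the mitochondrial matrix, complex II feeds in electrons from succinate without pumping, and complex V lets protons back in to make ATP. Most subunits are encoded in the nucleus, while a small set of hydrophobic core subunits is encoded in mitochondrial DNA, and complex II is wholly nuclear. Heart muscle is among the tissues richest in mitochondria, and in mammals several complex IV subunits come in a heart and skeletal muscle form and a form used elsewhere.

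Single-cell RNA libraries had been prepared from border zone and injured ventricular tissue of adult zebrafish at 120 hours post-cryoinjury, a freezing injury of the ventricle. There was 1 library from wild types and 1 from cd74a;cd74b mutants, which carry CRISPR-induced deletions in both genes for the invariant chain of MHC class II. Both groups were of the AB strain, aged 3 to 12 months in the study's description of its fish, and both received the same injury, so no uninjured heart was compared. Each library pooled the tissue of 4 ventricles from 2 females and 2 males, so each genotype had 1 replicate and no test between genotypes was possible. Differences between the libraries are therefore given with 95% intervals (exact Poisson for levels, exact conditional binomial for ratios and shares) that cover counting error only.

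A barcode was kept if it had over 300 genes and no more than 70% mitochondrial UMIs, which left 3589 of 4607 in the wild-type and 7174 of 15142 in the mutant library. The kept cells held 5427815 and 10062225 non-mitochondrial UMIs. The 2 libraries differed throughout: the median mitochondrial share was 15% in the wild-type and 22.3% in the mutant cells, and ribosomal protein genes took 38.1% and 46.0% of the non-mitochondrial UMIs. The targeted genes were lower in the mutant library, at 86.9 against 1170 CPM (UMIs of a gene per 1000000 non-mitochondrial UMIs, the scale of all levels below) for cd74a and 49.8 against 496 for cd74b. The libraries shared 15 barcodes, 7 of them among the kept cells. Cells were clustered without mitochondrial, ribosomal protein or respiratory chain genes, and clusters were named "-like" from marker lists with thresholds set after the clusters had been seen. The cardiomyocyte-like class was a single cluster (cluster 12) of 62 wild-type and 34 mutant cells, with myl7, cmlc1, csrp3 and actc1a among its leading genes. No UMI of actc1a was found in its mutant cells. The cluster carried all 12 testable cardiomyocyte markers at more than 2-fold their level elsewhere. Cluster 5 (369 and 44 cells) was led by the heat shock genes hsp90aa1.1 and hspb6 with ckma and desma. Cluster 7 (30 and 1663 cells) had ckmt2b and the erythrocyte genes cahz and hbba2 among its leading genes. Both also carried all 12 markers at more than 2-fold (median log2 2.97 and 1.72, against 3.39 in cluster 12). They were left unnamed because their erythrocyte markers had medians of 2.5 and 2.09, and a lead of 0.5 was required. With a coarser clustering (Leiden resolution 0.5) the cardiomyocyte-like class held 418 wild-type and 76 mutant cells, all 62 and 34 among them. The 62 and 34 cells are thus a narrow choice of the cells with these markers.

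The 82 subunits together took 2.52% of the non-mitochondrial UMIs of the wild-type cells and 2.83% of those of the mutant cells. The assay tags the 3′ end of each molecule, so levels need no scaling to transcript length. Complex V was the most abundant, at 9942 CPM in the wild-type and 10756 in the mutant library. Complex IV followed at 8212 and 9471, complex I at 4866 and 5491 and complex III at 1847 and 2267. Complex II was far below the others, at 364 and 303 CPM. Counted over both libraries, the most abundant subunit gene of complex V was atp5mc3b, which encodes the c subunit of the rotating ring, at 1371 CPM in the wild-type and 1348 in the mutant library. The small subunits atp5l (1082 and 1353) and atp5md (1003 and 988) came next. In complex IV the 3 most abundant genes by the same count were cox7c (1035 and 1178), cox6c (922 and 1111) and cox6b2 (1048 and 1041), and in complex III they were uqcrq (538 and 843), uqcr10 (498 and 638) and uqcrh (420 and 455). In complex I they were ndufa1 (460 and 444), ndufb3 (340 and 395) and ndufa3 (272 and 419), all accessory subunits.

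**Figure D1:**
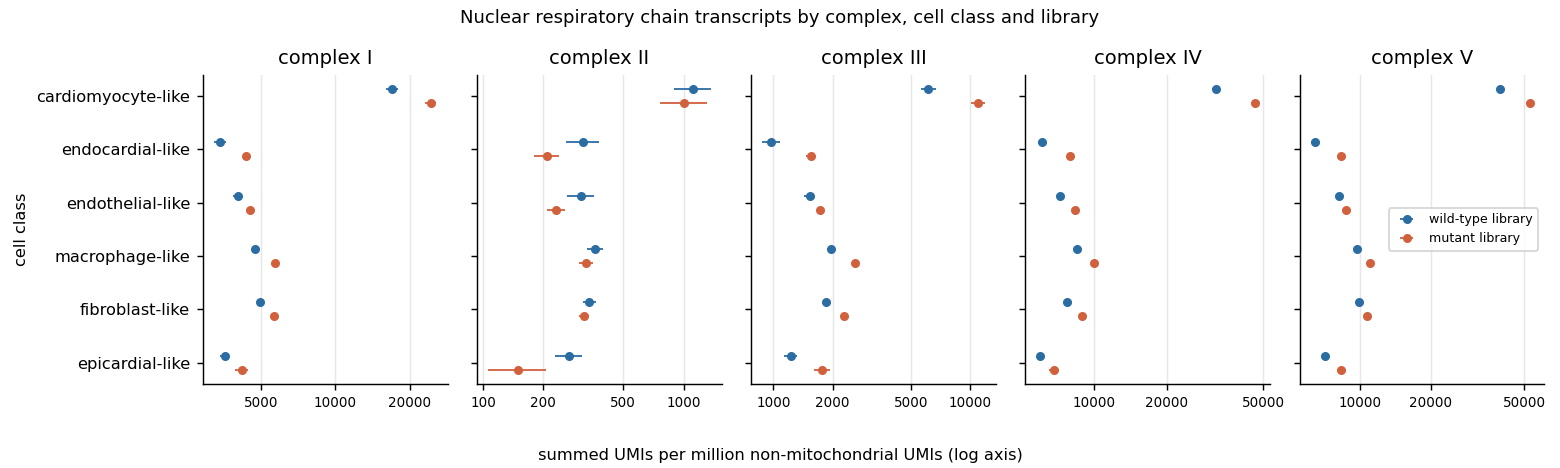
Summed level of the subunit genes of each complex (x axis, CPM, log scale) in each cell class (y axis), with the wild-type library in blue and the mutant library in orange. Points are pooled cells of 1 library and bars are 95% Poisson intervals. All 5 complexes were highest in the cardiomyocyte-like class of both libraries, and complex II was the only complex whose point lay lower in the mutant library in every class.

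The cardiomyocyte-like cells held by far the most respiratory chain RNA. In the wild-type library the subunits summed to 95757 CPM in this class (9.58% of its non-mitochondrial UMIs) against 24150 in all other kept cells, a 3.97-fold difference (log2 1.99, interval 1.95 to 2.02). In the mutant library the values were 135175 and 27694, a 4.88-fold difference (log2 2.29, 2.25 to 2.32). Of the subunits with at least 50 UMIs, 75 of 80 in the wild-type and 78 of 81 in the mutant library were at least 2-fold higher in this class, where 18% and 27.7% of all genes tested were. The median log2 difference of the subunits was 1.93 and 2.36, and that of all genes was −0.42 and 0.31. All 5 complexes took part: in the wild-type library complex V was 4.17-fold, complex IV 4.08-fold, complex I 3.62-fold, complex III 3.43-fold and complex II 3.15-fold above the other cells. In the mutant library these folds were 5.01, 4.99, 4.52, 4.93 and 3.36. The spread over single cells was wide. The interquartile range of the cardiomyocyte-like cells ran from 84655 to 123243 CPM in the wild-type library and from 87610 to 166099 in the mutant library, while 95% of the fibroblast-like cells lay below 38816 and 40257.

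The size of this difference depended on which cells were counted as cardiomyocyte-like. With classes set by marker UMIs per cell, which put 342 wild-type and 1317 mutant cells in the class, it was log2 1.15 in the wild-type and 0.49 in the mutant library. With clusters 5 and 7 joined to the class it was 0.98 and 0.48. Cluster 5 alone stood at 36047 and 51013 CPM and cluster 7 at 31087 and 32987, between the cardiomyocyte-like cells and the other classes.

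The complex IV genes that come in several forms divided along the same line. The 2 members with the highest level relative to the other cells were cox7a1 and cox6a2 in the wild-type library and cox7a1 and cox5b2 in the mutant library. In mammals COX7A1 and COX6A2 are the heart and skeletal muscle forms of their subunits, and cox5b2 is a form of the zinc-binding subunit 5B. In the cardiomyocyte-like cells cox7a1 stood at 3772 (wild-type) and 4782 (mutant) CPM, against 105 and 190 in the other cells, a log2 difference of 5.17 and 4.65. The same difference was 4.46 and 4.30 for cox6a2, 4.31 and 4.34 for cox5b2, 3.10 and 3.72 for cox4i1l and 2.17 and 3.07 for cox8b, which in rodents is the heart and muscle form of subunit 8. Their partner genes differed less or in the other direction: cox6a1 was lower in the cardiomyocyte-like cells than elsewhere (log2 −0.44, −1.13 to 0.18, and −1.45, −2.45 to −0.61), cox8a was level (0.16 and −0.10), cox7a2a was at 0.31 and 1.06, and cox4i1, the partner of cox4i1l, was higher as well (1.19 and 1.64). The genes cox6a1, cox8a and cox7a2a, with ndufb2 at 0.95, were the 4 subunits of the wild-type library between a 2-fold rise and a 2-fold fall. No UMI of cox4i2 was found in the cardiomyocyte-like cells of either library. That count allows up to 36.6 CPM in the wild-type and 53.9 in the mutant class, against 36.7 and 29.2 in the other cells, so a lower level was not detectable at this depth.

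As shares of each set, cox6a2 gave 92.1% of the cox6a UMIs in the wild-type and 96.5% in the mutant cardiomyocyte-like cells, and 8.09% and 19.3% in the fibroblast-like cells. For cox7a1 against cox7a2a the shares were 86.1% and 80.4% in cardiomyocyte-like and 10.1% and 21.9% in fibroblast-like cells. For cox8b against cox8a they were 64.9% and 81.9% against 25.7% and 29.0%. The cox5aa and cox5ab pair, which encodes subunit 5A, stayed near one ratio instead, with cox5aa at 71.2% and 69.8% in cardiomyocyte-like and at 63.5% and 63.6% in fibroblast-like cells. In the ndufa4 family, whose mammalian member NDUFA4 is now placed with complex IV, ndufa4l gave most UMIs in every class. The smaller part from ndufa4 was 33.7% and 20.6% in the cardiomyocyte-like cells and between 1.97% and 7.01% in the other named classes. Per cell, after thinning each cell to 500 UMIs, cox7a1 was detected in 83.3% of 60 wild-type and 76.5% of 34 mutant cardiomyocyte-like cells, and in 3.24% of 1204 and 9.89% of 2325 fibroblast-like cells (unthinned 91.9%, 91.2%, 10.4% and 21.4%, at median depths of 1039, 1437, 1311 and 1146 UMIs).

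**Figure D2:**
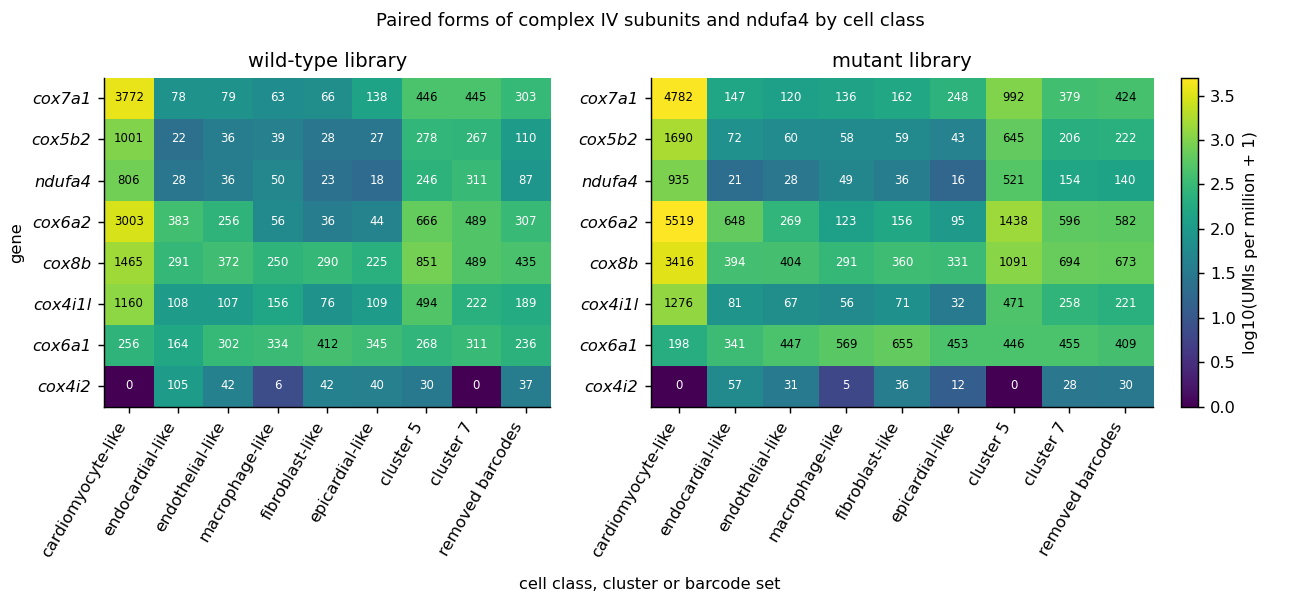
Levels of 8 genes with paired or tissue-type forms (rows) in each cell class, in the unnamed clusters 5 and 7 and in the removed barcodes (columns), for the wild-type library on the left and the mutant library on the right. Numbers in the cells and colours give CPM (colour on a log10 scale). The first 6 genes are highest in the cardiomyocyte-like column, cox6a1 is spread over the other classes, and cox4i2 is highest in the endocardial-like column and 0 in the cardiomyocyte-like column.

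Other heart muscle RNA was also found outside the cardiomyocyte-like class, and the ratio of these genes to it differed between genes and classes. The 15 cardiomyocyte markers summed to 1791 to 3992 CPM in the other named classes of the wild-type library and to 2934 to 4595 in those of the mutant library, with 13 or 14 of the 15 detected in each class and actc1a or myh6 at 0. In the barcodes removed by the filter they summed to 14937 and 16435. For every 100 marker UMIs the fibroblast-like class held 2.54 UMIs of cox7a1 in the wild-type and 3.53 in the mutant library, where the removed barcodes held 2.03 and 2.58. For cox5b2 the values were 1.07 and 1.28 against 0.74 and 1.35. Other genes stood further from the removed barcodes: cox8b lay between 7.29 and 12.6 in the other named classes of both libraries, against 2.91 and 4.10. In the epicardial-like cells cox7a1 reached 7.70 and 8.47, and in the wild-type fibroblast-like cells cox4i1l was at 2.93 against 1.27. In the same measure cox6a2 reached 9.58 and 16.8 in the endocardial-like and 7.87 and 7.81 in the endothelial-like cells, against 2.06 and 3.54 in the removed barcodes and 1.40 and 3.40 in the fibroblast-like cells. The endocardial-like cells held cox6a2 at 383 and 648 CPM, so its ratio to the marker RNA was several times that of the removed barcodes in both libraries. After thinning it was detected in 19.7% of 315 wild-type and 27.0% of 597 mutant endocardial-like cells (unthinned 33.4% and 53.7%), and in 2.08% and 10.1% of the fibroblast-like cells.

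The classes of the vessel and heart lining were low in the pathway otherwise. The subunits summed to 17253 CPM in the wild-type and 22397 in the mutant endocardial-like cells, and to 18121 and 21291 in the epicardial-like cells, the lowest values of the named classes in each library. Endothelial-like cells stood at 21250 and 23566, fibroblast-like cells at 24791 and 27900 and macrophage-like cells at 25302 and 29625. In the endocardial-like class only cox4i2 and cox6a2 were at least 2-fold above the other cells, in both libraries (2 of 80 and 2 of 81 subunits, where 8.28% and 4.46% of all genes were). In mammals COX4I2 is the form of subunit 4 known from lung and from low oxygen. It stood at 105 and 57.2 CPM in the endocardial-like cells, at 41.5 and 31.1 in endothelial-like, 41.8 and 35.9 in fibroblast-like and 6.44 and 5.32 in macrophage-like cells. As a share of the cox4 set it was 11.6% and 6.56% in the endocardial-like cells. The members that led the other classes did so by little: cox6b1 led the macrophage-like cells of the wild-type library at log2 0.63 and ndufv3 those of the mutant library at 0.68, with sdhb next in both (0.55 and 0.66). In the fibroblast-like cells cox6a1 (0.45 and 0.47) was among the first 2 in both libraries. No subunit was 2-fold above the other cells in the macrophage-like, fibroblast-like, endothelial-like or epicardial-like class of either library. The share of all genes that passed 2-fold there was 13.3% and 9.74% in the macrophage-like, 7.93% and 7.46% in the fibroblast-like, 6.93% and 3.04% in the endothelial-like and 3.53% and 6.05% in the epicardial-like class.

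Between the genotypes the summed level differed little, and the complexes did not move together. Over all kept cells the subunits stood at 25231 CPM in the wild-type and 28288 in the mutant library, a log2 difference of 0.17 (0.16 to 0.17). The median of the 8415 genes with at least 50 UMIs was −0.47. The sign depended on the scale: counted against all UMIs, mitochondrial ones included, the difference was −0.056, and scaled by the median gene ratio it was 0.66. Complex III was 0.30 (0.26 to 0.33) above the wild-type library, complex IV 0.21 (0.19 to 0.22), complex I 0.17 (0.15 to 0.20) and complex V 0.11 (0.10 to 0.13), while complex II was lower, at −0.26 (−0.35 to −0.18). The sign of complex II did not hold on other scales: it was 0.23 when scaled by the median gene ratio and 0.20 with edgeR's TMM factor, which shift all genes of a library alike. No subunit reached a 2-fold difference in either direction, where 1.78% of all genes were at least 2-fold higher and 9.95% at least 2-fold lower in the mutant library. Of the 82 subunits 39 had an interval above 0, 26 an interval below 0 and 17 an interval that spanned 0, whereas 6.38% of all genes had an interval above 0 and 51.8% one below 0. Whether an interval leaves out 0 depends on the count, and the sets were not matched for level. Under 50 CPM there were 9 subunits but 6969 genes that were neither members nor ribosomal protein genes. With levels scaled by the median gene ratio, 11 members reached 2-fold higher levels among the mutant cells, where 4.71% of all genes did.

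Inside the complexes the differences followed role in part. The groups by role within complexes II, III and V were drawn after the values had been seen, and every sign below is on the scale of non-mitochondrial UMIs. The median of all genes on this scale was −0.47, so a value below 0 was usual. Relative to that median the core subunits of complex I were at 0.15 and complex II at 0.20, so they moved less than the small subunits and not below the typical gene. The 6 measured core subunits of complex I, which carry electrons from NADH towards quinone, were lower in all 6 cases (the core gene ndufs1, at 1 UMI, was outside the minimum). They summed to 383 CPM in the wild-type and 308 in the mutant library (log2 −0.32, −0.40 to −0.24). The 28 accessory subunits summed to 4483 and 5184 (0.21, 0.19 to 0.23), and 8 of them were below 0. The iron-sulphur subunit gene ndufs7 was the lowest of complex I, at 131 and 95.3 CPM (−0.46, −0.60 to −0.32), and the accessory gene ndufa7 the highest, at 57.7 and 112 (0.95, 0.77 to 1.14). In complex III the core proteins and the Rieske protein, 4 genes, were at −0.26 (−0.34 to −0.17), with all 4 below 0. The 4 small subunits were at 0.39 (0.36 to 0.43), with 1 of them below 0. The highest of the small subunits was uqcrq, which sits beside cytochrome b, at 538 and 843 CPM (0.65, 0.59 to 0.71).

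In ATP synthase the 3 large subunits of the catalytic head were lower in the mutant library. The catalytic beta subunit gene atp5f1b stood at 627 CPM in the wild-type and 465 in the mutant library (−0.43, −0.50 to −0.37), the alpha subunit gene atp5fa1 at 362 and 283 (−0.35) and the gamma subunit gene atp5f1c at 334 and 252 (−0.41). The c ring genes summed to the same level in both libraries (2507 and 2506 CPM). The small delta and epsilon subunits of the head were at 0.36 (0.31 to 0.40). The 5 small membrane subunits were at 0.27 (0.24 to 0.29), with 1 of them below 0. The 4 genes of the stalk were at 0.14 (0.10 to 0.17) in sum, with 2 of them below 0. Among these 4, atp5pf, which encodes coupling factor 6, was at 0.51 (0.45 to 0.57), the highest of complex V. In complex IV, whose catalytic subunits are all mitochondrially encoded, cox6a2 (180 and 310 CPM, 0.79) and cox6a1 (346 and 539, 0.64) were highest and cox4i1l (151 and 103, −0.54) lowest. The paralogues cox6a1 and cox6a2 therefore differed in the same direction. In complex II the flavoprotein gene sdha was at 63.4 and 41.4 (−0.61, −0.82 to −0.40), the iron-sulphur gene sdhb at 95.1 and 71.8 (−0.41) and the membrane anchor gene sdhdb at 71.1 and 54.1 (−0.40). The other anchor gene sdhc was level at 130 and 132 (0.02, −0.11 to 0.16), and sdhda had 25 and 38 UMIs in all.

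**Figure D3:**
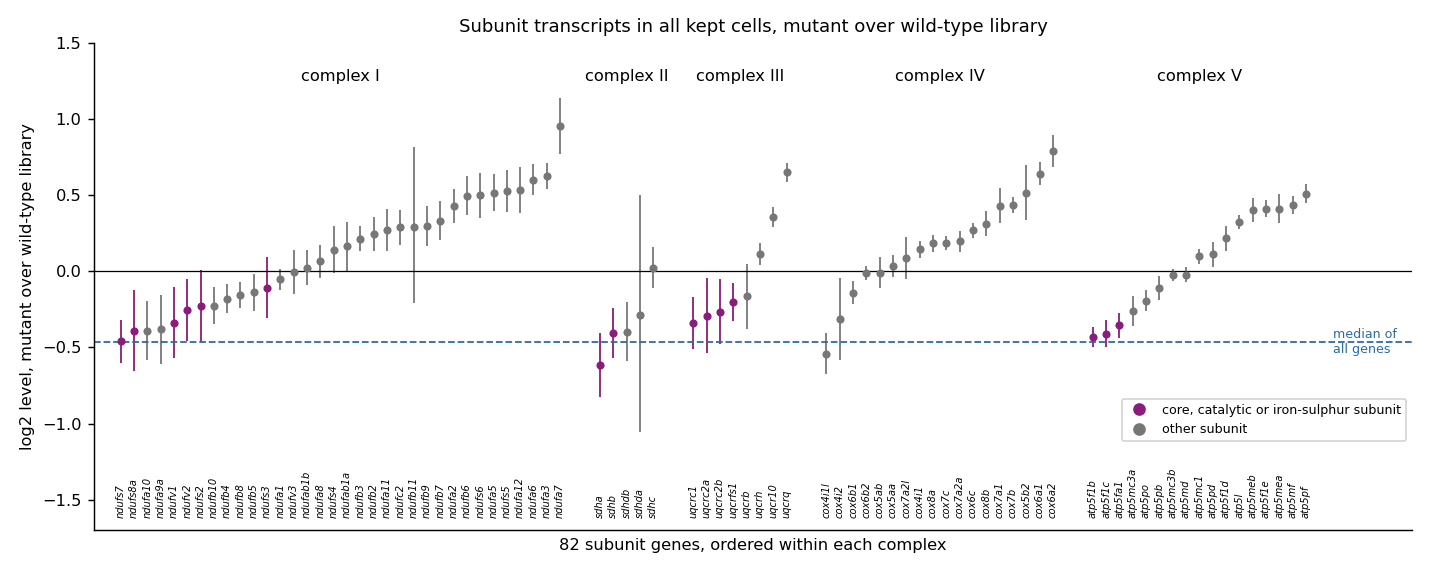
Log2 level of each of the 82 subunit genes in the mutant over the wild-type library (y axis), all kept cells, ordered within each complex (x axis). Points are single genes with 95% counting intervals, core, catalytic and iron-sulphur subunits are purple, and the dashed line is the median of all genes. All purple points lie below 0 on this scale and all but sdha lie above the dashed line, and the highest points are ndufa7, cox6a2 and uqcrq.

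Ribosomal protein genes were higher in the mutant library as well, at log2 0.27 for their sum. Among the subunits the log2 difference was weakly related to the level across the 82 genes (Pearson's r 0.36, Spearman's rho 0.37, genes not being independent replicates), and among all 8415 genes it was not (0.03 and 0.00). The 9 subunit genes under 50 CPM had a median of −0.30, with 8 of them below 0, and the 12 genes at 50 to 100 CPM had −0.21, also with 8 below 0. At 100 to 200 CPM the median was 0.18, at 200 to 500 it was 0.11 and above 500 it was 0.20. Genes that were neither members nor ribosomal protein genes had a median between −0.58 and −0.46 in each of these bands. The ribosomal protein genes had a median of −0.35 under 50 CPM (4 genes), −0.28 at 200 to 500 (2 genes) and −0.11 at 500 to 2000 (10 genes). Level and role overlapped: of the genes under 100 CPM, 12 were core genes of complexes I and III or complex II genes, all 12 of them below 0, and 4 of the other 9 were below 0. At 100 CPM or more, 5 of the 6 genes of those groups, the Rieske protein and the large head subunits were below 0, against 15 of 55 others. Whether the library-wide differences in ribosomal and mitochondrial RNA have a part in the pattern was not tested. In the removed barcodes the subunits stood at 23500 CPM in the wild-type and 31001 in the mutant library (log2 0.40), the core subunits of complex I at 0.25 (0.03 to 0.47) and the accessory ones at 0.46 (0.39 to 0.53).

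In the named classes complex II was again the lowest of the 5 complexes. The order of the others differed between classes, with complex III highest in 5 classes and complex IV (0.20) just above complex III (0.18) in the endothelial-like cells. The summed subunits were higher in the mutant library in all 6 classes, by log2 0.50 (0.45 to 0.54) in cardiomyocyte-like, 0.38 (0.34 to 0.42) in endocardial-like, 0.23 (0.21 to 0.25) in macrophage-like, 0.23 (0.19 to 0.28) in epicardial-like, 0.17 (0.16 to 0.19) in fibroblast-like and 0.15 (0.12 to 0.18) in endothelial-like cells. The median of all genes was between −0.58 and −0.36 in 5 of these classes and 0.05 in the cardiomyocyte-like class. Macrophage-like cells came mostly from cluster 2 in the wild-type and cluster 4 in the mutant library, and fibroblast-like cells from clusters 6 and 8 in the wild-type and cluster 11 in the mutant library. Within those clusters the difference was 0.37 in cluster 2, 0.29 in cluster 4, 0.13 in cluster 6, 0.16 in cluster 8 and 0.14 in cluster 11. Cluster 2 held only 60 mutant cells, and clusters 4 and 11 held only 36 and 23 wild-type cells. Complex II was the exception in every class, from −0.84 (−1.39 to −0.32) in epicardial-like and −0.59 (−0.93 to −0.24) in endocardial-like to −0.10 (−0.23 to 0.04) in fibroblast-like cells. The intervals of complex II spanned 0 in cardiomyocyte-like, macrophage-like and fibroblast-like cells. The large head subunits of ATP synthase were lower in 5 of the 6 classes, between −0.52 in endothelial-like and −0.26 in fibroblast-like cells, and higher in the cardiomyocyte-like class (0.38, 0.16 to 0.60).

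**Figure D4:**
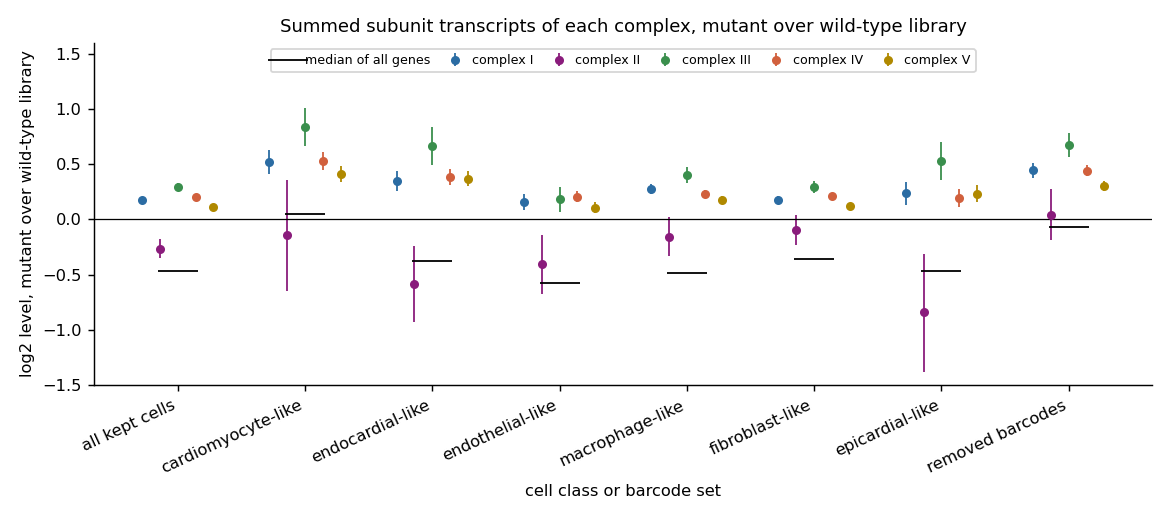
Log2 level of the summed subunit genes of each complex in the mutant over the wild-type library (y axis) for all kept cells, each cell class and the removed barcodes (x axis). Points are pooled cells with 95% counting intervals and black dashes are the median of all genes in the same cells. On this scale complex II lies lowest in each set, and complex III lies highest in all sets but the endothelial-like class.

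In the cardiomyocyte-like class, which rests on 62 and 34 cells, 7 of 61 subunits reached 2-fold higher levels among the mutant cells, where 5.35% of all genes did. None was 2-fold lower, where 5.66% were. All genes here were only the 318 with at least 50 UMIs, and these include the 61 subunits. The 17 genes that were 2-fold higher include the 7 subunits. The 7 were ndufa2, ndufb6 and ndufab1b of complex I, uqcrq and uqcr10 of complex III, cox8b of complex IV and atp5mea of complex V. The highest with at least 100 UMIs were ndufa2 (500 and 1294 CPM, log2 1.37, 0.80 to 1.96), uqcrq (1929 and 4548, 1.24, 0.95 to 1.53) and cox8b (1465 and 3416, 1.22, 0.88 to 1.56). Among genes with at least 100 UMIs the lowest were ndufb3 (1233 and 971, −0.34, −0.85 to 0.15), cox8a (793 and 755, −0.07) and ndufb8 (1123 and 1097, −0.03), all with intervals across 0. The summed difference of this class changed sign with the choice of cells: it was −0.46 with classes set by marker UMIs and −0.29 with clusters 5 and 7 joined, but 1.11 with cluster 5 alone joined. As a mean over cells it was 0.30. Marker RNA differed too, since the 15 cardiomyocyte markers summed to 122647 CPM in the wild-type and 105368 in the mutant cells of the class.

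Single genes passed 2-fold in the other classes. The subunits at least 2-fold higher were 3.7% in fibroblast-like, 3.8% in macrophage-like and 3.28% in epicardial-like cells. The shares of all genes, given with each class below, were not far from these. In the fibroblast-like cells 3 of 81 subunits reached 2-fold higher levels among the mutant cells, where 3.15% of all genes did, and none was 2-fold lower (8.72%). These 3 were cox6a2 (36.3 and 156 CPM, log2 2.11, 1.77 to 2.47), cox7a1 (65.7 and 162, 1.30) and cox5b2 (27.6 and 58.7, 1.09), all of which were highest in the cardiomyocyte-like class. The cardiomyocyte markers were also higher in these fibroblast-like cells, at 4595 against 2585 CPM, and their part in this difference was not tested. In the macrophage-like cells ndufa7 (48.3 and 111, 1.20), cox6a2 (56.4 and 123, 1.13) and cox7a1 (62.8 and 136, 1.12) were higher, 3 of 79 against 2.25% of all genes, and cox4i1l was the only 2-fold lower subunit (1 of 79, where 17.8% of all genes were). The cox4i1l gene stood at 156 CPM in the wild-type and 55.9 in the mutant macrophage-like cells (−1.48, −1.84 to −1.13), and its share of the cox4 set was 14.7% and 5.38%. Its level per 100 cardiomyocyte marker UMIs was 5.70 and 1.52, where the removed barcodes held 1.27 and 1.34. The wild-type macrophage-like cells held cox4i1l above the ratio of the removed barcodes and the mutant cells stood close to it. The ratio was also lower in the mutant library in epicardial-like (6.10 and 1.08), endothelial-like (3.27 and 1.95), fibroblast-like (2.93 and 1.54) and endocardial-like cells (2.71 and 2.09). It was higher in the mutant cardiomyocyte-like cells (0.95 and 1.21). The source of the cox4i1l RNA in these classes was not tested.

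In the endocardial-like cells 5 of 69 subunits reached 2-fold higher levels among the mutant cells, where 2.78% of all genes did, among them uqcrq (255 and 555 CPM, log2 1.12), ndufs6 (47.1 and 99.3, 1.07) and cox6a1 (164 and 341, 1.06). None was 2-fold lower, where 16.6% of all genes were. Of the genes with at least 100 UMIs the lowest was ndufv3, a small subunit of the NADH-oxidising arm, at 147 and 87.4 (−0.75, −1.27 to −0.22), followed by cox4i1l (−0.42) and atp5f1b (−0.34). In the endothelial-like cells no subunit was 2-fold higher (2.09% of all genes) and 3 of 78 were 2-fold lower (24.7% of all genes), namely sdha, ndufv1 and uqcrc2b. Of the genes with at least 100 UMIs there, ndufa7 (43.3 and 80.7, 0.90), ndufs5 (0.77) and ndufa6 (0.74) were highest and cox4i1l (107 and 67.0, −0.67), atp5f1b (−0.58) and ndufb10 (−0.51) lowest. In the epicardial-like cells, 260 and 137 in number, 2 of 61 subunits (uqcrq and cox6a2) were 2-fold higher, where 2.73% of all genes were, and 1 (cox4i1l) was 2-fold lower, where 19.7% were. Here uqcrq stood at 333 and 741 CPM (1.15, 0.86 to 1.45) and cox4i1l at 109 and 31.5. The c ring gene atp5mc3a, with 100 and 21 UMIs, was at 168 and 82.8 (−1.02, −1.78 to −0.33).

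The members outside the complexes did not move together. On this scale the summed assembly factors lay below 0, though above the median of all genes (−0.47). The gene ndufa4l and the 2 inhibitor genes lay above 0, as the summed accessory subunits of complex I did. The 10 assembly factors, which help build complexes I and II and are not part of them, summed to 133 CPM in the wild-type and 109 in the mutant library (log2 −0.29, −0.43 to −0.16). The lowest of all members with at least 100 UMIs were ndufaf5 (12.5 and 6.56, −0.93) and ndufaf1 (24.1 and 13.6, −0.83). The gene ndufa4l was at 791 and 863 (0.13, 0.07 to 0.18) and ndufa4 at 59.7 and 59.6. The inhibitor of ATP synthase, which blocks the enzyme from running backwards, had atp5if1a at 240 and 257 (0.10) and atp5if1b at 169 and 199 (0.24, 0.13 to 0.35). In the cardiomyocyte-like cells atp5if1b held 61.3% and 81.2% of their joint UMIs, against 30.3% and 36.5% in the fibroblast-like cells. The gene cox7a2l, which in mice joins complexes III and IV into supercomplexes, was level at 120 and 128 (0.09, −0.05 to 0.23), and so was the acyl carrier protein gene ndufab1b of complex I (167 and 169). Paralogue pairs mostly lay on the same side of 0, such as atp5mea and atp5meb (0.41 and 0.40) or uqcrc2a and uqcrc2b (−0.29 and −0.27), whereas the c ring genes atp5mc1 and atp5mc3a lay on opposite sides (0.10 and −0.26), as did cox4i1 (0.14) against cox4i1l (−0.54) and cox4i2 (−0.32).

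Neighbouring pathways gave the frame for these values. The 16 genes of the citric acid cycle, which supplies NADH and succinate, summed to 1323 CPM in the wild-type and 1021 in the mutant library (log2 −0.37), and none of them passed 2-fold in either direction. Of all genes 1.78% were at least 2-fold higher and 9.95% at least 2-fold lower in the mutant library, and the counts of these lists stand against those shares. The carriers of electrons, phosphate and adenine nucleotides (9 of 13 genes with at least 50 UMIs) summed to 7006 and 4782 (−0.55), with none 2-fold higher and 1 2-fold lower. Creatine kinases and myoglobin, which buffer energy and oxygen in muscle, summed to 3851 and 3293 (−0.23), with 1 of 6 genes 2-fold lower. The sum of this list was not particular to the cardiomyocyte-like cells. It stood at 14696 and 13196 CPM there and at 18098 and 11246.5 in the endocardial-like cells (log2 −0.69). Only 1 of 6 genes was at least 2-fold above the other cells in the endocardial-like class of each library, where 8.28% and 4.46% of all genes were. In the cardiomyocyte-like class 4 and 5 of 6 were, where 18% and 27.7% of all genes were. The high endocardial-like sum therefore did not come from the list as a whole. The regulators of mitochondrial genes summed to 328 and 251 (−0.39), with 0 of 8 genes past 2-fold. In the cardiomyocyte-like cells the citric acid cycle genes were above the other cells by 2.42 and 2.76 on the log2 scale. Of these 15 genes, 14 and 13 were at least 2-fold higher, where 18% and 27.7% of all genes were. The regulators differed by −0.11 and 0.10 in sum, with 2 of 7 and 4 of 8 genes at least 2-fold higher. They held only 25 and 15 UMIs in this class. These 2-fold counts, like the shares of all genes, therefore rest partly on the pseudocount of 0.5.

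The mitochondrially encoded partners of these complexes differed between the libraries in amount and in make-up. The 13 mitochondrial mRNAs took 13.8% of all UMIs of the wild-type and 22.7% of those of the mutant cells, and there were 6.59 and 11.3 mitochondrial UMIs for each nuclear subunit UMI. This pooled difference did not hold in every class. The ratio was 5.33 and 9.31 in fibroblast-like cells, but 8.30 and 8.87 in macrophage-like cells and 10.8 and 9.98 in endocardial-like cells, where the mutant library was lower. Cluster 7, with 1663 mutant but 30 wild-type cells, stood at 17.9 and 23.1. The ratio was lowest in the cardiomyocyte-like cells (2.86 and 3.54) and was 27.0 and 42.7 in the removed barcodes. By complex, over all kept cells, it was 2.84 and 7.40 for complex I, 17 and 36.8 for complex III, 12.8 and 16.5 for complex IV and 1.58 and 3.56 for complex V. For complex IV it was lower in the mutant library in endocardial-like (18.7 and 13.7), endothelial-like (13.6 and 11.7) and macrophage-like cells (15.9 and 13.1). The 3 complex IV genes held 63.3% of them in the wild-type and 49.0% in the mutant library, the complex III gene mt-cyb 18.9% and 26.2%, the 7 complex I genes 8.31% and 12.8% and the 2 complex V genes 9.46% and 12%. This difference was found in every cell class and in the removed barcodes, where complex IV held 61.0% and 48.1%, so that library and genotype cannot be told apart.

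**Figure D5:**
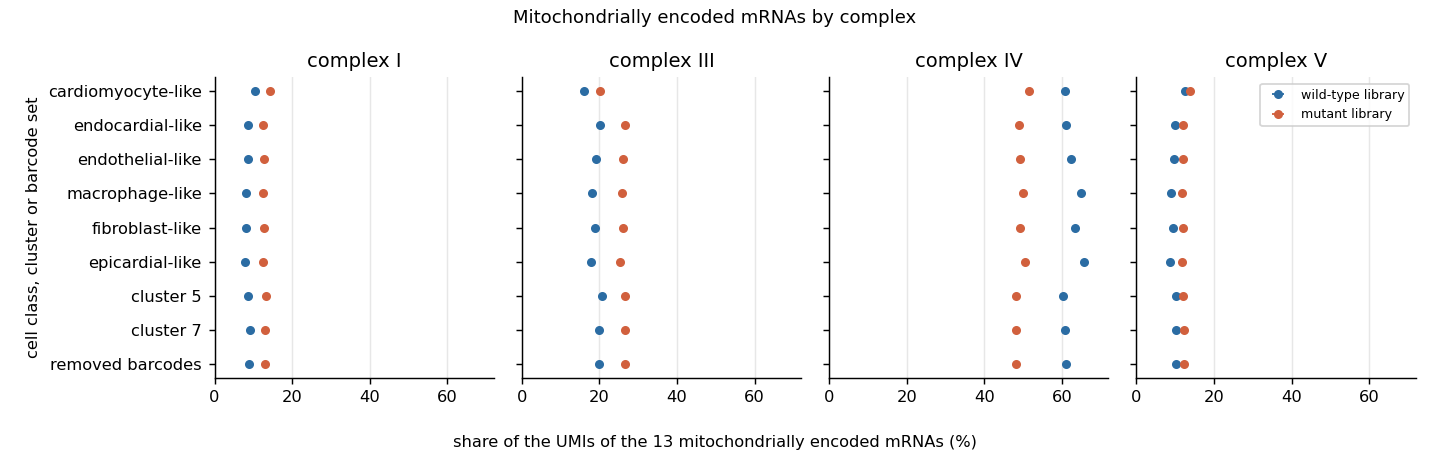
Share of each complex among the UMIs of the 13 mitochondrially encoded mRNAs (x axis, %) in each cell class, in clusters 5 and 7 and in the removed barcodes (y axis), with the wild-type library in blue and the mutant library in orange. Points are pooled barcodes of 1 library, and the 95% exact binomial intervals are mostly narrower than the points. In each row the complex IV share is lower, and the complex I and III shares are higher, in the mutant library.

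Across clusters pooled by library the nuclear subunits tended to vary as a block, less so without the cardiomyocyte-like cluster. Over 26 cluster-by-library units with at least 20000 UMIs, the level of a member followed the sum of the other subunits with a median Pearson's r of 0.85 over the 82 members with at least 500 UMIs, and 56 of these had an r above 0.8. The units share libraries and depth, so these values are a description. No such r was computed for genes outside the members, so whether the values exceed those of other genes was not tested. The genes most like the block were atp5f1d (0.98), cox7c (0.97) and atp5l (0.97), while cox6a1 (−0.07) and cox8a (0.35) were least like it among these. Without the cardiomyocyte-like cluster the median was 0.68, and cox6a1 (0.53) and cox8a (0.54) then followed the block. Without clusters 5, 7 and 12 the median was 0.54 over 20 units, and cox6a1 was at 0.86 and cox8a at 0.90. The lowest were then cox8b (−0.32), cox4i1l (−0.27) and cox6a2 (−0.15). The subunit level also differed with the mitochondrial share of a cell. In the mutant library it was 27146 CPM in cells with under 10% and 36704 in cells with 50% to 70% mitochondrial UMIs. Among the mutant fibroblast-like cells it was 29358 under 10%, 26506 between 20% and 30% and 32290 between 50% and 70%. In the wild-type fibroblast-like cells it was 26649 under 10%, 20989 between 20% and 30% and 24062 between 30% and 40%. Both libraries thus had a lower level in the 20% to 30% bin than in the bins given on either side.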

How the data were processed

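The authors counted UMIs per gene with STARsolo on danRer11, and Scanpy is also named in the submitters' processing notes. The annotation release is not given in the sources used here. The deposited values are raw UMI counts per gene and barcode, 1 matrix per genotype, and no column of another series was present. Barcodes with more than 300 genes and at most 70% mitochondrial UMIs were kept, as in the study's stated filter, and the 3589 and 7174 barcodes left are slightly fewer than the cells the study gives. Dead cells had been removed before loading, doublets were left in and no caller was run. Cells were clustered with Scanpy 1.11.5 (Python 3.11.15) without mitochondrial, ribosomal protein or respiratory chain genes, so cell names are rebuilt and may differ from the study's. Nuclear respiratory chain genes were summed per library and class as CPM (UMIs per 1000000 non-mitochondrial UMIs). Log2 ratios of single genes are set against all genes with at least 50 UMIs in the cells compared, with a pseudocount of 0.5 where genes are counted past 2-fold. Named genes were the 3 highest and 3 lowest ratios among members with at least 100 UMIs, the 3 most abundant genes of each complex and the 2 highest of each class over other cells. Genes outside this rule, such as the paralogue pairs and the members past 2-fold, were named after their values were seen. TMM factors came from edgeR 4.0.16 in R 4.3.3 and served only as another scale. The members, gene lists and alternatives were chosen with earlier results of these data known. With 1 library per genotype no p-value is given, and intervals cover counting error only. Poisson counts were also simulated for all kept cells. Of 50 genes lowered and 50 genes raised 4-fold, 92% and 90% had intervals that held the true value, as did 96.1% of 8215 unchanged genes. The simulated counts held no variation between cells or libraries. They therefore check the calculation of the intervals only and say nothing about differences between animals or libraries. No sequence is printed, since none was used here.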

Additional observations from a re-analysis of the deposited data

Results flagged for a closer look

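Barcodes that failed the filter were left out of the kept cells and shown only as a separate set, yet they held respiratory chain RNA. The subunits summed to 23500 CPM (UMIs per 1000000 non-mitochondrial UMIs) over 1018 removed barcodes of the wild-type library and to 31001 over 7968 of the mutant library. The mitochondrially encoded mRNAs, which lie outside the nuclear genes measured here, differed in make-up between the libraries. The complex III gene mt-cyb held 18.9% of them in the wild-type and 26.2% in the mutant library, and the complex IV genes held 63.3% and 49.0%.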

How the results depend on the processing

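No paired analysis was possible because each genotype had 1 library, and for the same reason no replicate could be left out. Each value below is a log2 ratio of summed subunits, and the cause of each shift was not tested. For mutant over wild type in all kept cells (0.17), scaling by the median gene ratio gave 0.66, the TMM factor 0.63, leaving out ribosomal protein and haemoglobin genes 0.36, all UMIs −0.056, cells with more than 500 genes 0.15, at most 30% mitochondrial UMIs 0.14 and the mean over cells 0.19. Leaving out clusters 5, 7, 12 and 13, chosen after seeing the data, gave 0.20. For the cardiomyocyte-like class (0.50), the same order of settings gave 0.35 (median ratio), 0.56 (without ribosomal and haemoglobin genes), 0.19 (all UMIs), 0.69 (more than 500 genes) and 0.30 (mean over cells). Other class definitions gave −0.46 (marker UMIs), 1.08 (Leiden resolution 0.5), −0.29 (clusters 5 and 7 joined) and 1.11 (cluster 5 alone joined, chosen after seeing the data). For cardiomyocyte-like over other wild-type cells (1.99), scaling gave 1.33 (median ratio), 1.46 (TMM), 1.76 (without ribosomal and haemoglobin genes) and 1.86 (all UMIs), cell choice 1.86 (more than 500 genes), 1.94 (at most 30%) and 2.09 (mean over cells), and class definitions 1.15, 1.05, 0.98 and 1.00 in the order above. For the mutant cells (2.29) these were 1.34, 1.11, 1.93, 2.08, 2.40 (more than 500 genes), 2.14 (mean over cells), 0.49, 1.88, 0.48 and 1.85. Members at least 2-fold higher in all kept cells (0) numbered 11 by the median ratio (4.71% of all genes), 6 by TMM (4.27%), and 1 each without ribosomal and haemoglobin genes (2.42%) and by the mean over cells (1.98%). Members at least 2-fold lower (0) numbered 2 per all UMIs (22.2% of all genes) and 1 in cells with more than 500 genes (19.5%). Named genes past 2-fold that changed sign beyond their interval were cox8b of the cardiomyocyte-like class (−0.47 with marker UMIs, −0.22 with clusters 5 and 7 joined) and atp5mc3a of the epicardial-like class (0.38 with marker UMIs, 0.10 with Leiden resolution 0.5). Counted at any size, the sign of a named gene changed in 5 of 42 cases with the TMM factor and 3 of 42 with the median ratio. It changed in 5 of 36 cases each with marker UMIs and Leiden resolution 0.5, and in 2 of 36 with clusters 5 and 7 joined. The minimum of UMIs per member changed none of the summed values by more than the counting error.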
